A study of Mus musculus with 9 samples.

Results

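The granzymes and natural killer genes described here are the transcripts that arm and define uterine natural killer cells, together with the cytokine that sustains them. They are 10 genes, read at 12 probe sets, out of 18193 genes and 45037 probe sets on the array. Members were chosen by name as granzyme or natural killer genes, namely Gzma, Gzmb, Gzmc, Prf1, Nkg7, Ncr1, Klrk1, Klrd1, Il2rb and Il15, after a high Gzmb intensity in the uterus without Mig-6 and Erbb2 was already known, and a probe set counted only where the annotation gave it no other gene. The intensities of the members on these arrays were therefore used in choosing them, and they are given as a description. No p of a single member is printed, and counts of members past a threshold stand beside the share of all genes and support nothing.

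Uterine RNA was hybridised to 9 Affymetrix Mouse Genome arrays, 3 for each of 3 groups, on gestation day (GD) 3.5, where the morning of the vaginal plug after mating with C57BL/6 males is GD 0.5. Control mice carried floxed alleles without Cre, as Mig-6 f/f or as Mig-6 f/f Erbb2 f/f, and which control array held which genotype was not given. Mice labelled Mig-6 d/d carried Pgr cre/+ with 2 floxed Mig-6 alleles. The double knockout, labelled Mig-6 d/d Erbb2 d/d, carried Pgr cre/+ with both genes floxed. Mig-6, the gene Errfi1, encodes an inhibitor of the epidermal growth factor receptor family, of which ERBB2 is a receptor. Cre from the Pgr locus acts in cells that express the progesterone receptor, which include epithelium, stroma and muscle, and the animals were of mixed C57BL/6 and 129P2/OlaHsd background. RNA was pooled from several mice, and whether the 3 arrays of a group were separate pools was not given, so the spread between arrays may be technical. The labels gave an age of 2 weeks, whereas the methods spoke of adult mice.

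Natural killer cells kill by releasing granules that hold perforin, which breaches membranes, and granzymes, serine proteases that pass into the target. Uterine natural killer cells multiply around implantation and early decidual growth, are supported by interleukin 15 from the stroma, and are best known for their part in remodelling the arteries of the pregnant uterus rather than for killing. Granzymes B, C and their relatives lie next to each other in one gene cluster, while granzyme A lies elsewhere in the genome.

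RefSeq promoters (build GRCm38.p6) were at hand for 7 of the 10 members, and the 250 bases before the gene start are shown for the 3 granzymes. They were picked since 1 of them, Gzmb, carried the largest difference among the members, and Gzmb and Gzmc are close neighbours. Each reads 5′ to 3′ on the minus strand, and capitals mark matches to any of 5 motifs searched on both strands: the RUNX core TGTGGT, the T-box core AGGTGT, the cyclic AMP response half-site TGACGT, the AP-1 motif TGANTCA and the STAT5 motif TTCNNNGAA.
Gzmb, chr14:56262335-56262584: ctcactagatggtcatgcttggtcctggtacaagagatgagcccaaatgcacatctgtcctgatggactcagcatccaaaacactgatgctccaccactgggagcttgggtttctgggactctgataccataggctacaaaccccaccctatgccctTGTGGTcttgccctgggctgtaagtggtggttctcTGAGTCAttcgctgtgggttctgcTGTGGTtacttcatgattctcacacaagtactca
Gzmc, chr14:56234658-56234907: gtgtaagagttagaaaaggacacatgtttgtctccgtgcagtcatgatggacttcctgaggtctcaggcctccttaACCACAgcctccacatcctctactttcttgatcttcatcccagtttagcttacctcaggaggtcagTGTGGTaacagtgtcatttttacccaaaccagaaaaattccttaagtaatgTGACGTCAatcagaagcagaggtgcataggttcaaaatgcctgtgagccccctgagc
Gzma, chr13:113100982-113101231: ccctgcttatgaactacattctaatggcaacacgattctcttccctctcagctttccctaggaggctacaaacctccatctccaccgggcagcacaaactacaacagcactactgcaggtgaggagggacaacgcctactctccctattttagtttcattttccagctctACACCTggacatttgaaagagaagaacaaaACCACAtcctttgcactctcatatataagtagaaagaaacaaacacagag

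The Gzmb window held 2 matches to the RUNX core, at 93 and 34 bases before the start, and 1 to AP-1 at 58 bases. The Gzmc window held 2 matches to the RUNX core and 2 overlapping half-sites that form 1 palindrome, at 57 and 55 bases. In Gzma there was 1 match to the T-box core, at 80 bases, and 1 to the RUNX core, at 50. Across members the RUNX core was present for 7 of 7 genes, against 14% of 32851 windows in the table. The T-box core was present for 3 of 7 genes (11.8% of all windows), the half-site for 2 (6.47%), and AP-1 and STAT5 for 1 each (6.75% and 7.02%). Members were counted by gene, with Ncr1 having 2 overlapping windows, and the table by window. The motifs were picked after the arrays had been read, for factors known in natural killer cells, and a match is a description of letters in this window.

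Some libraries stood apart. Errfi1 read 454, 564 and 286 in control replicates 1 to 3 and 15.1 and 15.96 in Mig-6 d/d replicates 1 and 2, but 255 in the array labelled Mig-6 d/d replicate 3, close to the lowest control. In the double knockout it read 76.1, 29.8 and 40.3. Erbb2 read 18.3, 9.88 and 18.5 in the double knockout and 29.4 to 46.6 in the other 6 arrays. Counts over the members, the pathway genes that were called and the marker lists are therefore also given without the array labelled Mig-6 d/d replicate 3. Control replicate 3 had the lowest of the 3 control intensities for 9 of 10 members, as it did for 35.2% of all genes and for 6 of 6 pan-leukocyte markers.

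Granzyme B carried by far the widest difference among the members. Gzmb read 28.7, 27.1 and 9.04 in control, 13.1, 11.5 and 16.9 in Mig-6 d/d and 110.0, 52.4 and 68.0 in the double knockout. The 3 double-knockout arrays lay above every other array, whereas control and Mig-6 d/d overlapped, with control replicate 3 below all 3 Mig-6 d/d arrays. Group means were 21.6 ± 10.9, 13.9 ± 2.77 and 76.8 ± 29.8 (SD, n = 3 each). Between the knockouts, that is double knockout over Mig-6 d/d, Gzmb had a log2 difference of 2.42 (SE 0.41, 95% confidence interval 1.497 to 3.342), and it was 2.57 without the array labelled Mig-6 d/d replicate 3. Against control the double knockout was higher by 1.93 on the log2 scale (SE 0.41, interval 1.01 to 2.86), or 1.39 without control replicate 3. Mig-6 d/d differed from control by -0.49 (interval -1.41 to 0.44), or by -1.03 without control replicate 3 and by -0.64 without the array labelled Mig-6 d/d replicate 3. In whole uterus, more natural killer cells and more Gzmb RNA per cell cannot be told apart.

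**Figure D1:**
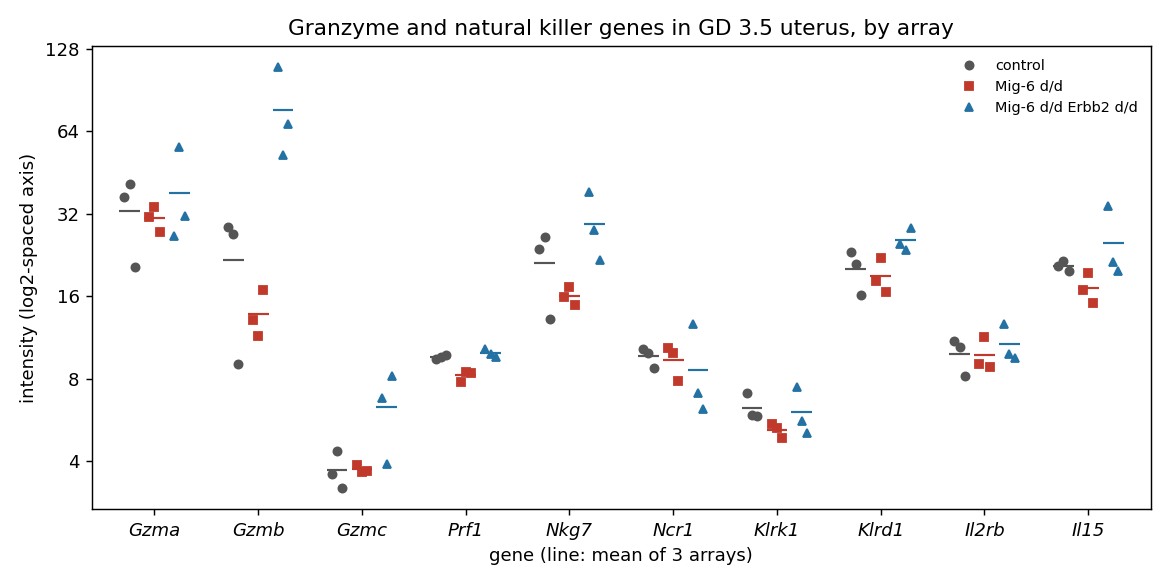
Intensity of each of the 10 genes (log2-spaced vertical axis, 1 point per array, lines for means of 3 arrays) in control, Mig-6 d/d and double-knockout uterus. Gzmb sits at 52.4 to 110.0 in the double knockout and at 9.04 to 28.7 in all other arrays, while Gzma and Ncr1 overlap between groups.

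The other 2 granzymes did not show one common pattern. Gzma, which encodes the tryptase-like granzyme A, read 36.9, 41.0 and 20.5 in control, 31.2, 34.0 and 27.4 in Mig-6 d/d and 26.6, 56.2 and 31.4 in the double knockout. All 3 groups overlapped, and the double knockout held both an array below every Mig-6 d/d array and the highest array of all. The log2 fold change of Gzma between the knockouts was 0.23 (interval -0.44 to 0.90), and -0.09 without double-knockout replicate 2. Gzmc, a relative of Gzmb from the same cluster, read 3.58, 4.36 and 3.19 in control, 3.89, 3.66 and 3.70 in Mig-6 d/d and 6.81, 3.92 and 8.16 in the double knockout. Double-knockout replicates 1 and 3 stood above the rest, but replicate 2 lay within the control range. Gzmc was dim throughout, since each value lay below the median of its array (7.87 to 8.24), where a fold is inexact, because no detection calls were used. The double knockout was above Mig-6 d/d by 0.68 on the log2 scale (interval 0.17 to 1.197) and above control by 0.71 (0.20 to 1.22). Without double-knockout replicate 2 these values were 0.99 and 1.02.

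Genes of the granule machinery differed less. Prf1 encodes perforin and was measured by 2 probe sets. The brighter one read 9.41, 9.57 and 9.77 in control, 7.79, 8.50 and 8.40 in Mig-6 d/d and 10.3, 9.82 and 9.59 in the double knockout. Every Mig-6 d/d array lay below every control and every double-knockout array, although the distance was small, with a log2 fold change of -0.22 (interval -0.41 to -0.03) from control and of 0.27 (0.08 to 0.46) between the knockouts. The dimmer Prf1 probe set read 6.23 to 6.56 in control, 4.36 to 5.83 in Mig-6 d/d and 6.48 to 7.42 in the double knockout, again with Mig-6 d/d below both other groups. The dimmer probe set lay below the array median on all arrays and the brighter one lay near it, so both folds are inexact. Nkg7, a granule membrane protein of cytotoxic lymphocytes, read 23.8, 26.4 and 13.3 in control, 15.9, 17.3 and 14.8 in Mig-6 d/d and 38.5, 28.0 and 21.8 in the double knockout. The double-knockout arrays were all above the Mig-6 d/d arrays, and overlapped with control. The Nkg7 log2 fold change was 0.84 (interval 0.26 to 1.42) between the knockouts, 0.79 without the array labelled Mig-6 d/d replicate 3, and 0.50 (-0.08 to 1.08) against control, or 0.19 without control replicate 3.

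Receptors of natural killer cells gave mostly overlapping groups. Ncr1, which encodes the activating receptor NKp46 and is among the most specific markers of the lineage, read 10.3, 9.93 and 8.78 in control, 10.4, 9.92 and 7.85 in Mig-6 d/d and 12.7, 7.09 and 6.21 in the double knockout. Double-knockout replicate 1 was the highest and replicates 2 and 3 the lowest of the 9 arrays, and the log2 fold change between the knockouts was -0.18 (interval -0.70 to 0.34), or 0.02 without replicate 3. Ncr1 was below the array median on 1 Mig-6 d/d array and 2 double-knockout arrays. Klrk1, the activating receptor NKG2D, read 7.08, 5.89 and 5.83 in control, 5.49, 5.27 and 4.86 in Mig-6 d/d and 7.46, 5.60 and 5.06 in the double knockout. It lay below the array median on all arrays, with Mig-6 d/d below all controls and overlapping with the double knockout. Klrd1, the CD94 chain that pairs with NKG2 receptors, read 23.3, 21.0 and 16.2 in control, 18.2, 22.0 and 16.7 in Mig-6 d/d and 24.8, 23.7 and 28.4 in the double knockout. The double-knockout arrays were above all others for Klrd1, by 0.44 on the log2 scale (interval 0.10 to 0.78) over Mig-6 d/d and by 0.36 (0.01 to 0.70) over control. Neither difference in Klrd1 reached 1.5-fold.

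Il15 and a chain of its receptor were both measured. Il15, the cytokine on which natural killer cells depend, read 20.7, 21.5 and 19.9 in control, 16.9, 19.5 and 15.2 in Mig-6 d/d and 34.2, 21.4 and 19.8 in the double knockout. Mig-6 d/d was below both other groups on every array, and double-knockout replicate 1 alone lay above the control range. The log2 fold change was 0.51 (interval 0.10 to 0.93) between the knockouts, 0.24 (-0.18 to 0.65) from control to the double knockout (-0.01 without double-knockout replicate 1), and -0.27 (-0.69 to 0.14) from control to Mig-6 d/d. Il2rb, the receptor chain shared by interleukins 2 and 15, read 11.0, 10.4 and 8.19 in control, 9.08, 11.4 and 8.80 in Mig-6 d/d and 12.7, 9.88 and 9.51 in the double knockout at its brighter probe set. Groups overlapped at both Il2rb probe sets, and the log2 fold change between the knockouts was 0.13 (interval -0.22 to 0.49) at the brighter one.

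**Figure D2:**
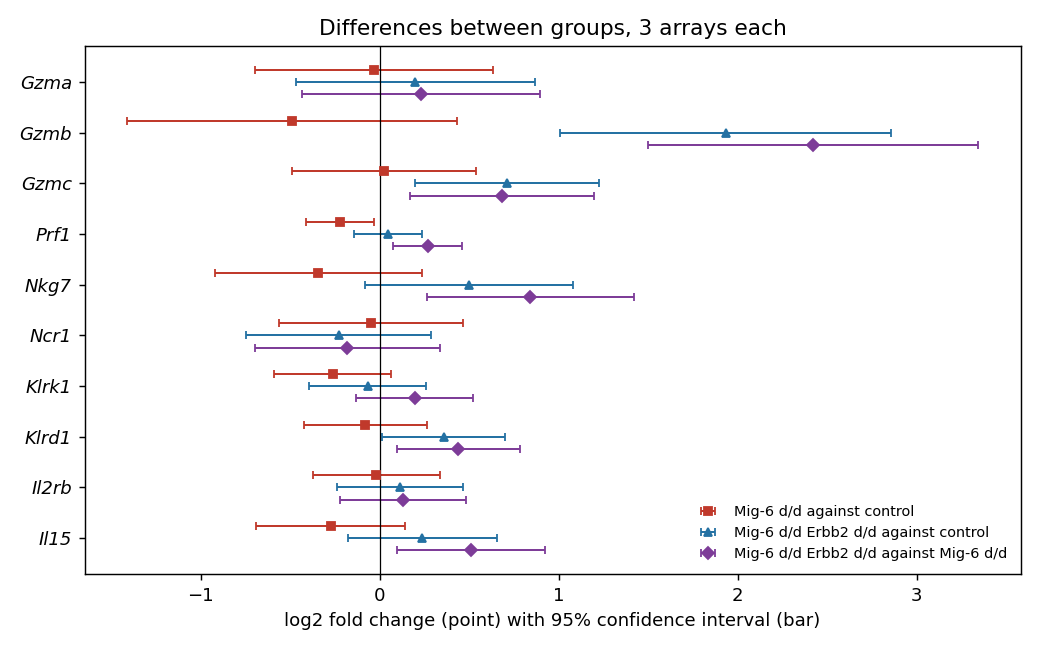
Log2 fold change of each gene (points) with its 95% confidence interval (bars) for the 3 comparisons, 3 arrays per group. Gzmb lies at 2.42 between the knockouts and at 1.93 for the double knockout against control, and every other gene lies between -0.34 and 0.84.

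A gene was called where the adjusted p of limma was under 0.05 over all probe sets and the change exceeded 1.5-fold. Between the knockouts 1 of 10 members was called, Gzmb, beside 7.48% of all 18193 genes. Over 18 alternative settings its log2 fold change ran from 1.59 to 2.66. Because Gzmb was known before the members were set, nothing is read from this call. At an unadjusted p under 0.05 stood 6 of 10 members in this comparison, beside 26.5% of all genes. With 1.5-fold as well there were 3 (11.0% of all genes), and the methods' t-test with its fold limit passed 2 (9.27%). Nothing is read from these counts either. In this comparison the double-knockout arrays lay wholly above the Mig-6 d/d arrays for 6 of 10 members, against 18.6% of all genes, and those were Gzmb, Gzmc, Prf1, Nkg7, Klrd1 and Il15. The median over all 10 members was a log2 fold change of 0.35, beside 0.03 over all genes. For the cell markers described below it was 0.47 (stromal), 0.68 (endothelial), 1.01 (smooth muscle) and -1.93 (epithelial). Double-knockout arrays lay wholly above Mig-6 d/d for 5 of 7, 6 of 7, 6 of 6 and 0 of 8 of these markers. Without the array labelled Mig-6 d/d replicate 3, 1 member was called, Gzmb, and the members' median was 0.32. There Prf1 differed by 0.28, Klrd1 by 0.35 and Il15 by 0.43 on the log2 scale.

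Against control the double knockout had 0 of 10 members called by limma, with 0.407% of all genes called. At an unadjusted p under 0.05, 3 members passed, beside 7.95% of all genes. Of these, 2 exceeded 1.5-fold (1.93% of all genes), and the methods' t-test with its fold limit passed 1 (1.17% of all genes). Since Gzmb was known when the members were set, nothing is read from these counts. Limma did not call Gzmb in any of 18 alternative settings of that comparison (log2 fold change 1.30 to 2.22). The methods' own test, counted above, was not among those settings. Gzmc was called by limma without double-knockout replicate 2. Double-knockout arrays lay wholly above control for 2 of 10 members, Gzmb and Klrd1, against 6.54% of all genes. The median log2 fold change over the members was 0.22 (0.13 without control replicate 3), and 0.01 over all genes.

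Mig-6 d/d against control also had 0 of 10 members called by limma, with 4.35% of all genes called. There 1 member passed at an unadjusted p under 0.05 (24.0% of all genes), and 0 with 1.5-fold as well (8.61%), and the methods' t-test passed 0 (5.96%). Mig-6 d/d arrays lay wholly below control for 3 of 10 members, Prf1, Klrk1 and Il15, against 14.1% of all genes lower in that way. The median log2 fold change was -0.15 for the members and -0.03 for all genes. A negative value was found for 9 of 10 members, beside 10035 of all 18193 genes. Without the array labelled Mig-6 d/d replicate 3 the negative values were 5 of 10 (median -0.09), with Gzma, Ncr1, Klrd1 and Il2rb turning to 0.01 to 0.07, and without control replicate 3 they were 10 of 10 (median -0.27). Limma called 0 members in either case. These 3 comparisons share their arrays in pairs, so their values for a gene are not independent.

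Correlations between members within groups were read as a description. After each group's mean was taken away, 38 of 45 pairs of members had a positive correlation over the 9 arrays. The share over all pairs of genes was not computed, so nothing particular to the members is read from this count. The highest values were for Ncr1 with Il15 (r = 0.95) and Ncr1 with Klrk1 (r = 0.93). Nkg7 correlated with Il2rb (r = 0.87) and with Gzmb (r = 0.80). These points share libraries and pools, and single arrays weigh heavily in them. Double-knockout replicate 1 was the highest array for Gzmb, Nkg7, Ncr1, Klrk1, Il2rb and Il15, and for Prf1 at its brighter probe set. Control replicate 3 was the lowest control for 9 members.

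Genes outside the members whose levels over the 9 arrays most resembled Gzmb, of 11963 candidates brighter than the median, were Rbm28 (r = 0.98), Colgalt1 (r = 0.98), Dctn5 (r = 0.98), Ap2a2 (r = 0.97) and Fcrls (r = 0.97). Fcrls, an Fc receptor-like gene expressed by macrophages and microglia, read 53.7, 68.0 and 28.6 in control, 36.4, 38.4 and 32.0 in Mig-6 d/d and 124, 88.1 and 91.9 in the double knockout. As for Gzmb, its double-knockout arrays were above all others and control replicate 3 was the lowest control. For Il15 the most similar patterns were those of Nt5c3b (r = 0.95), Msantd3 (r = 0.94), Rubcn (r = 0.94), B4gat1 (r = 0.94) and Tsen34 (r = 0.93). A correlation of this kind over 9 arrays in 3 groups is a description.

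Further genes of the natural killer pathway were taken from 8 lists of receptors, adaptors, transcription factors, granule proteins, cytokine signalling, chemokines and ligands, of which 87 of 104 genes were measured by a probe set of their own. Between the knockouts limma called 3 higher and 2 lower, namely 2 of 24 receptors up, 1 of 9 granule genes down, and 1 up and 1 down among 6 ligands. These lists were drawn up with earlier results of the arrays known, so the calls and p values of their genes are given as a description. Those that rose were Klra8, Klra7 and H60c. Klra8, the activating Ly49H receptor of natural killer cells, read 4.18, 4.52 and 4.12 in control, 4.88, 4.58 and 3.56 in Mig-6 d/d and 34.5, 7.87 and 13.3 in the double knockout. Its 3 double-knockout arrays lay above all others, 1.83 on the log2 scale above Mig-6 d/d (SE 0.41, limma adjusted p = 0.0270). Klra7, the inhibitory Ly49G2 receptor, read 4.05, 3.62 and 3.35 in control, 3.70, 3.54 and 3.67 in Mig-6 d/d and 13.1, 5.43 and 8.28 in the double knockout. These groups did not overlap either (1.21 on the log2 scale, SE 0.25, limma adjusted p = 0.0200). In both genes double-knockout replicate 1 was highest and replicate 2 lowest of the group, the order seen for Gzmb.

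Both Ly49 readings came from probe sets whose probes can match several members of the family, and the second Klra7 probe set lay at 3.29 to 4.16 on all 9 arrays, so which Ly49 gene was read is uncertain. The content and sequence of the Ly49 cluster differ between C57BL/6 and 129 mice, and the part of strain background in a mixed colony was not tested. Without the array labelled Mig-6 d/d replicate 3, the Klra8 log2 fold change was 1.70 (limma adjusted p = 0.0895) and that of Klra7 1.21 (limma adjusted p = 0.0600). Neither gene was called without Mig-6 d/d replicate 1 (1.93 and 1.22), without Mig-6 d/d replicate 2 (1.88 and 1.19) or without double-knockout replicate 3 (1.94 and 1.21). Against control neither was called on all arrays (1.85 and 1.195), and both were called without double-knockout replicate 2 (2.33 and 1.51).

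H60c, a ligand of NKG2D, read 4.25, 3.51 and 3.60 in control, 3.96, 3.03 and 3.70 in Mig-6 d/d and 4.91, 5.41 and 8.28 in the double knockout. Between the knockouts it rose by 0.77 on the log2 scale (SE 0.19, limma adjusted p = 0.0389), with 8 of 9 arrays below the array medians. H60c kept its call without each control array or double-knockout replicate 1, and lost it without Mig-6 d/d replicate 1 (0.85), 2 (0.66) or 3 (0.80) and without double-knockout replicate 2 (0.85) or 3 (0.54).

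The genes that fell were Ctsc and H2-D1. Ctsc encodes cathepsin C, the protease that activates granzymes and is also made by many other cells, and it read 358, 331 and 241 in control, 463, 393 and 497 in Mig-6 d/d and 275, 210 and 272 in the double knockout. Mig-6 d/d lay above both other groups, and the log2 fold change between the knockouts was -0.84 (SE 0.17, limma adjusted p = 0.0184). That call was lost without Mig-6 d/d replicate 1 (-0.82), without the array labelled Mig-6 d/d replicate 3 (-0.77) or without double-knockout replicate 2 (-0.72). H2-D1, a class I molecule that Ly49 receptors can bind, read 882, 675 and 754 in control, 1414, 892 and 1867 in Mig-6 d/d and 660, 682 and 826 in the double knockout. Its log2 fold change between the knockouts was -0.89 (SE 0.23, limma adjusted p = 0.0482), and the highest array was the array labelled Mig-6 d/d replicate 3. H2-D1 was called without Mig-6 d/d replicate 2 (-1.18) and lost its call without any other of the 9 arrays, with -0.64 without the array labelled Mig-6 d/d replicate 3.

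These 5 calls of 87 compare with 7.48% of all genes, and the median log2 fold change of the 87 genes was 0.11. From control to Mig-6 d/d limma called 1 of the 87 genes, in the list of 12 cytokines, chemokines and homing genes. Itga1, an integrin of tissue-resident natural killer cells that stroma and muscle also express, read 71.4, 76.0 and 71.5 in control and 41.9, 37.8 and 53.9 in Mig-6 d/d, without overlap (-0.73 on the log2 scale, SE 0.14, limma adjusted p = 0.0235). In the double knockout Itga1 read 69.0, 67.3 and 57.6. The Itga1 call held without the array labelled Mig-6 d/d replicate 3 (-0.87) and was lost without control replicate 2 (-0.70), Mig-6 d/d replicate 1 (-0.69) or Mig-6 d/d replicate 2 (-0.62). From control to the double knockout limma called 0 of the 87 genes, 10 passed an unadjusted p under 0.05, beside 7.95% of all genes, and the methods' t-test with its fold limit passed 2, beside 1.17%.

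**Figure D3:**
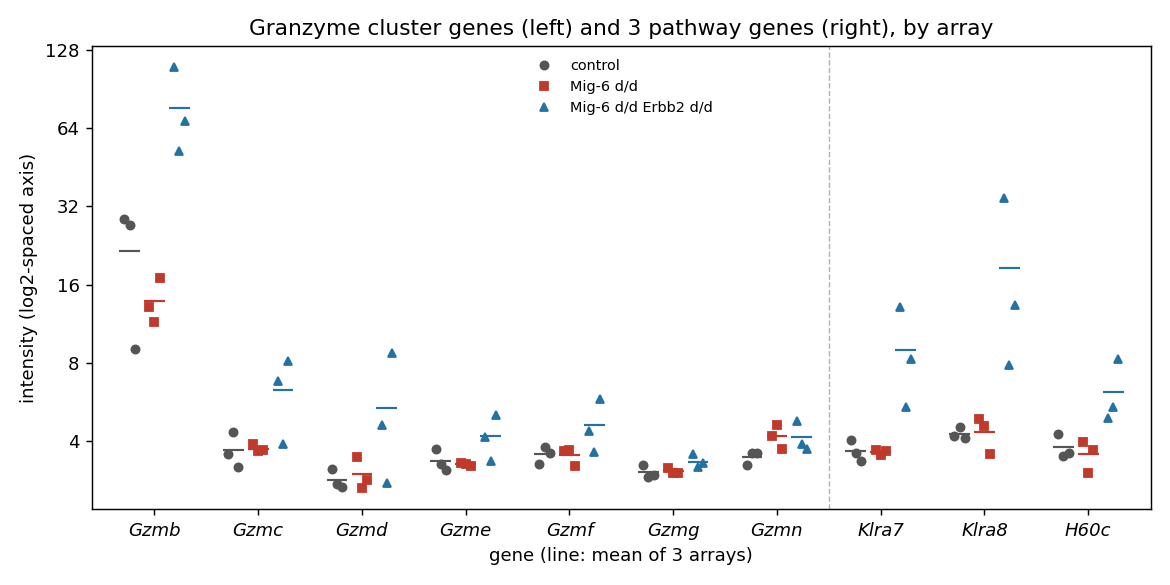
Intensity by array (log2-spaced axis, lines for means of 3 arrays) of the granzyme cluster genes to the left of the dashed line, and of Klra7, Klra8 and H60c, which rose between the knockouts, to its right. In the double knockout Gzmd spans 2.76 to 8.71 and Klra8 spans 7.87 to 34.5.

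Among the other granzymes 0 of 7 were called by limma in each comparison, and the methods' t-test passed 0 as well. At an unadjusted p under 0.05 stood 0, 2 and 2 for Mig-6 d/d against control, the double knockout against control and the knockouts. The shares of all genes at that limit were 24.0%, 7.95% and 26.5%. Gzmd read 4.61, 2.76 and 8.71 in the double knockout, against 2.67 to 3.14 in control and 2.64 to 3.49 in Mig-6 d/d. Gzme read 4.16, 3.35 and 5.06 in the double knockout and Gzmf read 4.39, 3.65 and 5.84. In Gzmc, Gzmd, Gzme and Gzmf alike, double-knockout replicate 3 was the highest and replicate 2 the lowest of its group. The other cluster members, Gzmg and Gzmn, read 3.18 to 3.56 and 3.75 to 4.80 in the double knockout, and of these 6 cluster genes beside Gzmb only 1 array, in Gzmd, lay above its array median. Gzme was read by a probe set that can match related granzymes.

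Transcription factors and adaptors gave no calls by limma in any comparison. For the 9 transcription factors 2, 1 and 1 genes passed an unadjusted p under 0.05 in the comparisons of Mig-6 d/d with control, double knockout with control and the knockouts. Of all genes 24.0%, 7.95% and 26.5% passed that limit. The methods' t-test passed 0 of the 9 in each comparison. Ets1, which natural killer development needs, read 195 to 251 in control, 148 to 165 in Mig-6 d/d and 168 to 194.5 in the double knockout, and its difference of -0.54 on the log2 scale from control to Mig-6 d/d (limma adjusted p = 0.0417) was short of 1.5-fold. Eomes and Tbx21, which direct the lineage, lay at 6.72 to 8.77 and 4.27 to 5.92 over all arrays. For the 8 adaptors and kinases 0, 0 and 1 passed an unadjusted p under 0.05, and the methods' t-test passed 0. Fcer1g, the signalling chain of NKp46 and Fc receptors, read 117, 85.4 and 102 in the double knockout against 75.7, 72.1 and 59.7 in Mig-6 d/d (0.55 on the log2 scale, SE 0.23, limma adjusted p = 0.218).

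Cytokine partners of interleukin 15 gave 0 calls by limma among 12 genes in each comparison, and 0 by the methods' t-test. At an unadjusted p under 0.05 stood 2, 0 and 1, beside 24.0%, 7.95% and 26.5% of all genes. Il15ra, which presents interleukin 15 to natural killer cells, read 34.4, 48.4 and 26.2 in control, 14.1, 25.2 and 24.9 in Mig-6 d/d and 35.9, 32.4 and 19.5 in the double knockout. Mig-6 d/d lay below control without overlap (-0.77 on the log2 scale, SE 0.30, limma adjusted p = 0.208), and the double knockout overlapped with both. Il18r1, a receptor chain for interleukin 18, went the other way, with 33.9, 13.0 and 16.4 in Mig-6 d/d against 8.25 to 10.4 in control (1.05 on the log2 scale, SE 0.30, limma adjusted p = 0.0875). Xcl1, a chemokine made by natural killer cells, read 19.4, 12.7 and 13.4 in the double knockout against 8.59 to 11.4 in Mig-6 d/d, again without a call (0.54 on the log2 scale, SE 0.21, limma adjusted p = 0.167).

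Markers of other cells in the uterus were read beside these genes. Counts are in the order Mig-6 d/d against control, double knockout against control and the knockouts. Of all genes 24.0%, 7.95% and 26.5% passed an unadjusted p under 0.05 there. The methods' t-test with its fold limit passed 5.96%, 1.17% and 9.27%. The 6 pan-leukocyte markers, among them Ptprc, the CD45 antigen, had 0 calls by limma in each comparison (1, 1 and 2 at an unadjusted p under 0.05; 0, 0 and 1 by the methods' t-test), and their summed intensity was 431 to 677 in control, 573 to 625 in Mig-6 d/d and 611 to 771 in the double knockout. The 9 T cell markers measured, which include Cd3e, had 0 calls as well (1, 0 and 0 at an unadjusted p under 0.05; 0 by the methods' t-test), with sums of 53.9 to 63.3, 52.3 to 56.2 and 55.3 to 56.7, and 6 of the 9 lay on average below the array median. The 7 mast cell markers had 0 calls (0, 2 and 2 at an unadjusted p under 0.05; 0, 1 and 0 by the methods' t-test). Their sums of 254 to 602, 297 to 991 and 471 to 733 were mostly Hdc, histidine decarboxylase, which other uterine cells also make and which alone read 172 to 869. From control to the double knockout 5 of the 7 were lower, beside 8609 of all 18193 genes, and the median log2 fold change of the 7 was -0.27. The double-knockout range of Gzmb was apart from the other groups while the sums of these 3 lists overlapped. From control to the double knockout 6 of 6 pan-leukocyte markers were nevertheless higher, as were 52.7% of all genes. The median log2 fold change of these markers was 0.26, beside 0.22 for the members. Between the knockouts 5 of 6 were higher (56.2% of all genes), with a median of 0.19, beside 0.35 for the members.

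Epithelial, endothelial and smooth muscle markers moved more than the 3 lists above. Beside the calls given here, limma called 4.35% of all genes from control to Mig-6 d/d and 7.48% between the knockouts. Summed epithelial markers were 2892 to 5177 in control, 7543 to 11504 in Mig-6 d/d and 2601 to 3640 in the double knockout, with 5 of 8 genes up from control to Mig-6 d/d (1 to 7 with single arrays left out) and 7 of 8 down between the knockouts (4 to 7). Endothelial markers summed to 660 to 769, 378 to 474 and 574 to 751, with 2 of 7 down from control to Mig-6 d/d (0 to 3) and 4 of 7 up between the knockouts (1 to 4). Of the smooth muscle markers 3 of 6 rose between the knockouts (1 to 4), and their sums were 12392 to 16282, 8492 to 11735 and 15071 to 18509. Without the array labelled Mig-6 d/d replicate 3, epithelial calls were 1 up from control to Mig-6 d/d and 6 down between the knockouts, endothelial calls 2 down and then 3 up, and 2 smooth muscle markers rose between the knockouts. Stromal markers had 1 of 7 down from control to Mig-6 d/d (0 to 2 with single arrays left out) and 1 of 7 up between the knockouts (0 to 2). B cell markers had 1 of 6 up and then 1 of 6 down (0 to 1 each). Of 6 macrophage markers 1 rose (1 to 2) and 1 fell (0 to 1) from control to Mig-6 d/d. Between the knockouts 1 fell (1 in each case) and 0 rose (0 to 1). There double-knockout arrays lay wholly above Mig-6 d/d for 3 of 6, Adgre1, Csf1r and Mrc1 (18.6% of all genes), and wholly below for Cd14. Adgre1 read 66.3 to 79.8 in the double knockout, above every other array (34.3 to 60.7). At an unadjusted p under 0.05 stood 3, 1 and 4 of 6 in the 3 comparisons, beside 24.0%, 7.95% and 26.5% of all genes. Without the array labelled Mig-6 d/d replicate 3 both B cell calls were absent, as were the stromal and the macrophage fall from control to Mig-6 d/d. Neutrophil markers had 0 of 7 called by limma in each comparison (1, 0 and 0 at an unadjusted p under 0.05; 0 by the methods' t-test). Epithelial, endothelial, smooth muscle and, less so, stromal markers moved between the knockouts, as Gzmb did. From control to the double knockout limma called 0 of these markers, beside 0.407% of all genes, and did not call Gzmb either. The median log2 fold changes there were -0.30, -0.11, 0.315 and 0.13 for these 4 lists, and Gzmb lay at 1.93. The part of these markers in the members' values was not tested. Control replicate 3 combined the highest epithelial sum of its group, 5177 against 2892 and 3093, with the lowest pan-leukocyte sum, 431 against 596 and 677.

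**Figure D4:**
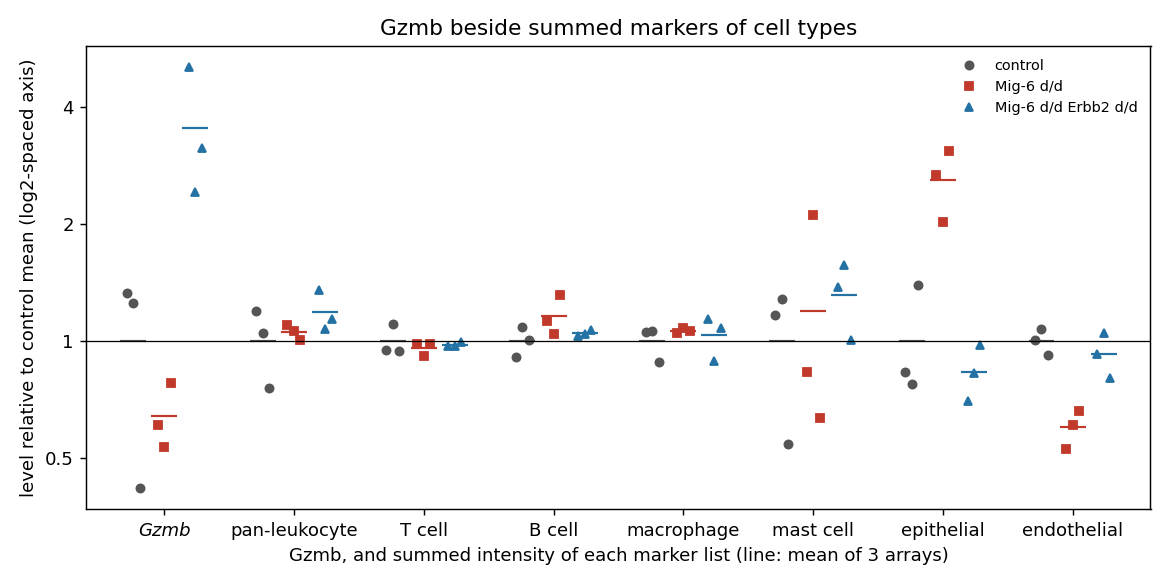
Gzmb and the summed intensity of 7 marker lists, each relative to its mean in control (log2-spaced axis, 1 point per array, lines for means of 3 arrays). Gzmb in the double knockout lies at 2.42 to 5.08 times the control mean, and summed pan-leukocyte markers there at 1.08 to 1.36.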

How the data were processed

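RNA of whole GD 3.5 uterus was measured on 9 Affymetrix arrays. The deposited intensities, 1 per probe set and array on a linear scale (2.11 to 11548.76), came from the authors' robust multi-array averaging with quantile normalization, for which the sources used here give no software version. Neither scanner files nor detection calls were used, and 3 arrays a group limit the precision. Here log2 of each deposited intensity was fitted with limma 3.58.1 in R 4.3.3 (lmFit and eBayes, 3 groups in 1 model, no block), with Benjamini-Hochberg adjustment over all 45037 probe sets. A call needed an adjusted p under 0.05 and more than 1.5-fold. The platform annotation named 1 gene for 34945 probe sets, several for 932 and none for 9160, and each gene was read at its brightest probe set of its own. The scripted fit was tested on simulated data. Groups came from the sample titles.

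The members and lists were chosen with earlier results of these data known. Named were all members, and from each list and comparison up to 4 genes with the largest calls in each direction, or the 2 smallest p where there was no call, not all of which are printed; Eomes, Tbx21, Cd3e, Ptprc, Gzmd, Gzme, Gzmf, Gzmg, Gzmn and Xcl1 were also named where the text needed them. Patterns most like Gzmb and Il15 were the 5 highest Pearson r. As alternatives, dim probe sets were filtered out, and the others were renewed quantile normalization, median centring, 16 added before log2, trended variance, 6 arrays only, array weights (statmod 1.5.0), a replicate block, each array left out, means over probe sets, the methods' t-test and other fold limits. For the arrays the methods give only a comparison of 2 groups with a fold limit; a t-test is named there for data of 2 groups in general, and its use on the arrays was a reading made here. Promoter windows came from RefSeq (GRCm38.p6), and figures were drawn with matplotlib 3.10.9 in Python 3.11.15.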

Additional observations from a re-analysis of the deposited data

How the results depend on the processing

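No value named here changed direction while called. After Benjamini-Hochberg the methods' t-test called 0 members and 0 pathway genes between the knockouts. Members called between the knockouts, 1 as reported, were 2 with only the 6 arrays compared, with array weights, with the replicate block and with the methods' t-test, and 1 to 2 with single arrays left out. The second member was Nkg7 with only 6 arrays, with array weights, with the block and without control replicate 3, and Gzmc without double-knockout replicate 2. Members called in the double knockout against control, 0 as reported, were 1 by the methods' t-test and 0 to 1 with single arrays left out (1 without double-knockout replicate 2).

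Pathway genes called between the knockouts, 5 as reported, were 3 among probe sets brighter than the median, 1 with 16 added before log2, 2 at a 2-fold limit and 0 to 5 with single arrays left out. They were 0 without Mig-6 d/d replicate 1, 1 without the array labelled Mig-6 d/d replicate 3 and, with double-knockout replicate 2 or 3 left out, 3 and 2. From control to Mig-6 d/d the 1 pathway gene became 2 with renewed quantile normalization or no fold limit, and 0 with 16 added, with 6 arrays, with means over probe sets, after Benjamini-Hochberg on the methods' t-test or at a 2-fold limit, and 0 to 2 with single arrays left out (0 without Mig-6 d/d replicate 1, 2 without control replicate 3 or Mig-6 d/d replicate 2). In the double knockout against control the 0 pathway genes became 2 by the methods' t-test and 0 to 2 with single arrays left out (2 without double-knockout replicate 2).

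Samples of the same replicate number share only a number: the correlation of their deviations from group means ran from -0.13 to 0.20, and not every array correlated best with its own number. With the replicate block, limma called 2 members and 7 pathway genes between the knockouts, and 0 members and 1 pathway gene from control to Mig-6 d/d.

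Intensity near or below the array median limits Gzmc, Prf1, Ncr1, Klrk1, Il2rb, the Ly49 genes and H60c, for which folds are inexact.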
